A study of Mus musculus with 3 samples.

Results

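Hypoxia-inducible factors (HIFs) and a panel of their regulators and targets were read in R1 cells, an established line of embryonic stem (ES) cells from strain 129 mice. The group comprised 10 genes, namely Hif1a, Epas1, Arnt, Vhl, Egln1, Egln3, Vegfa, Bnip3, Ankrd37 and Car9. They were taken as the probe sets whose single annotated symbol is one of these names, which gave 11 probe sets and 10 genes of 19057 genes in all. Mouse Gene 1.0 ST arrays (Affymetrix), whose probes lie along the exons of each transcript, measured total RNA of 3 biological repeats. The 3 arrays form 1 group with no treated or low-oxygen sample, and the labels give neither the oxygen level nor the medium nor the presence of feeder cells. Whether a gene gave signal, and how far the repeats differed, is therefore what the values can show. Because these are bulk samples, fewer cells of a type and less RNA per cell cannot be told apart.

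A HIF is a dimer of an oxygen-regulated alpha subunit and the stable beta subunit ARNT. When oxygen is present, prolyl hydroxylases of the EGLN family modify the alpha subunit, and the VHL protein then marks it for destruction by the proteasome. When oxygen is scarce the alpha subunit escapes, enters the nucleus and binds a short DNA element near genes for glycolysis, blood vessel growth, mitophagy and pH control. Because this control acts on the protein, the mRNA of an alpha subunit does not report HIF activity. In early embryos and ES cells the pathway is known for its part in adapting metabolism to low oxygen.

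The DNA element that HIFs bind has the core ACGTG or GCGTG. RefSeq (GRCm38.p6) gave promoters for 9 of the 10 genes; Epas1 was not matched. The 250 bases before each listed start were searched on both strands. ACGTG stood before 7 of the 10 listed starts, belonging to Hif1a, Egln1, Egln3, Vegfa, Bnip3, Ankrd37 and Car9, and in 16.6% of 32851 mouse starts. With GCGTG included, 8 of the 10 starts held a match, against 38.6% of all starts. The Vegfa match lay before its inner start, and its outer start had none of either form. The pieces below hold, for each of these genes except Vegfa, the ACGTG nearest the start; they are shown to set genes that gave signal beside Car9, which did not. They read 5′ to 3′ on the gene's own strand, and capitals mark ACGTG or its complement CACGT.
Hif1a, chr12:73907785-73907813 (+): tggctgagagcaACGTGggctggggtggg
Egln1, chr8:124949278-124949362 (-): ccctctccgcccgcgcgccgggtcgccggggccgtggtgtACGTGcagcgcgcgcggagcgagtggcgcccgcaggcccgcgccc
Egln3, chr12:54204059-54204124 (-): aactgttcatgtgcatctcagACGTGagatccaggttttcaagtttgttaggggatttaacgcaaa
Bnip3, chr7:138909569-138909653 (-): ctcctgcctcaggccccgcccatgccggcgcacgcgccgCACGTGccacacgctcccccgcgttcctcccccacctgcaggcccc
Ankrd37, chr8:45999851-45999868 (-): cagtgtttgggtACGTGa
Car9, chr4:43506968-43507025 (+): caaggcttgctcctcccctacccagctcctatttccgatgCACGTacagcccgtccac

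Counted from its first base as read on the gene's strand to the transcript start, the nearest ACGTG of either strand lay 6 bases away in Ankrd37 and 18 in Car9. It lay 68 bases away in Egln1, 70 in Hif1a, 107 in Bnip3 and 229 in Egln3. In Bnip3 it falls in CACGTG, which reads the same on both strands, so its 2 ACGTG matches overlap. Bnip3 also had 3 matches of the form GCGTG, the nearest 35 bases before the start. The same palindrome stands in Hif1a, 135 bases before the start. The starts listed for Hif1a, Ankrd37 and Arnt lie inside longer gene models, and short pieces are printed for the first 2 of them. Arnt had 1 match, of the form GCGTG, and Vhl had neither form. A match describes letters in this window and is no evidence of binding.

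**Figure D1:**
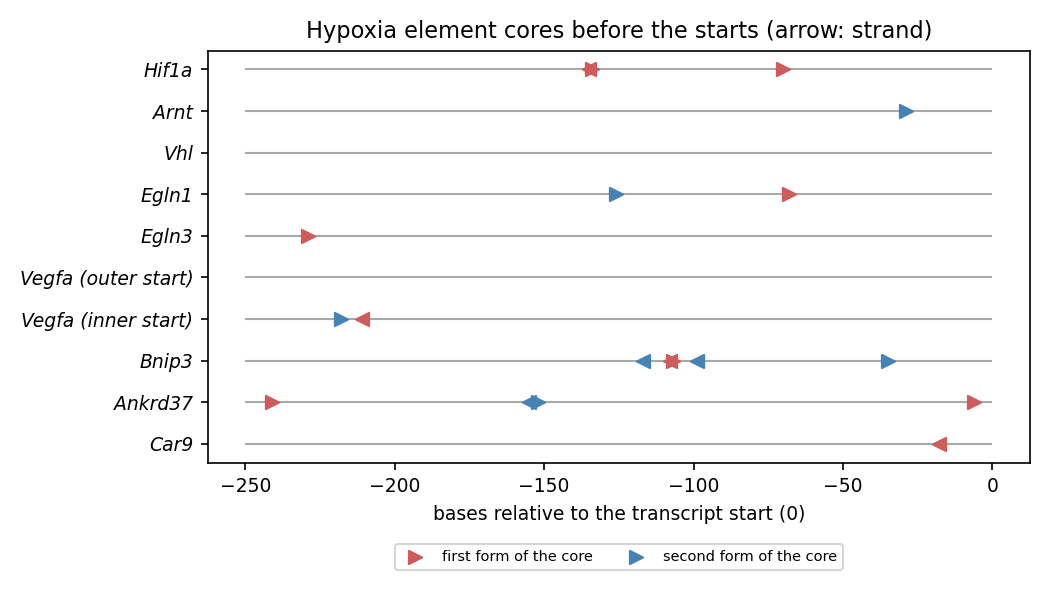
Matches to both forms of the hypoxia element core in the 250 bases before each listed start of the 9 genes with a RefSeq promoter (x axis, bases relative to the start at 0; red, ACGTG; blue, GCGTG; arrows point right for the gene's own strand and left for the other). Car9 and Ankrd37 have a match within 20 bases of the start, and Vhl has none.

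Of the 10 hypoxia genes, 9 gave signal above background on all 3 arrays, and the carbonic anhydrase gene Car9 did not. A gene counted as above background on an array where its value was higher than 95% of the 1182 genes for olfactory or vomeronasal receptors, which are silent in most tissues. These cutoffs were log2 4.72, 4.60 and 4.60 in repeats 1, 2 and 3. The same call held for 71.6% of 17875 genes outside the receptor families, so most genes of any kind pass it. At the 99th percentile of the receptor genes the count was again 9 of 10, and 55.1% over all genes. Levels are log2 probe set intensity throughout and depend on each gene's probes, so no gene's level is ranked against another's.

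Of the subunits of the factor itself, Hif1a and Arnt were read with little spread and Epas1 with more. Hif1a, the widely expressed alpha subunit, read 9.23, 9.29 and 9.20 in repeats 1, 2 and 3 (mean 9.24 ± 0.045 SD, n = 3). The highest and lowest repeats differed by 1.06-fold, less than in most genes, since 86.0% of genes above background had a larger SD. Arnt, the common partner of both alpha subunits, read 8.89, 8.85 and 8.82 (8.85 ± 0.035 SD, n = 3). Its repeats lay within 1.05-fold of each other. Epas1, which encodes the second alpha subunit and is best known from endothelial cells, read 9.02, 8.90 and 9.21 (9.05 ± 0.16 SD, n = 3). Repeat 3 was the highest and repeat 2 the lowest, 1.24-fold apart, and 22.8% of genes above background had a larger SD. These 3 genes lay at least 4.17 log2 units above the cutoff of every array.

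Epas1 signal stood beside weak endothelial markers. Of 10 such markers 8 were above the receptor cutoff on all 3 arrays, against 71.6% of genes outside the receptor families. Only Pecam1, which ES cells also express, exceeded on all 3 the higher cutoff described with Vhl below. Cdh5, a defining gene of endothelium, passed the receptor cutoff on 1 array, at 4.55, 4.62 and 4.40, and Emcn on none, at 3.25, 3.15 and 3.14. The summed intensity of the 10 markers was 490, 492 and 461 in repeats 1, 2 and 3, and that of the 9 without Pecam1 was 344, 321 and 337. The second sum was lowest in repeat 2, as Epas1 was, and the first was not. That dip rests on Tek, with intensities of 68.3, 45.4 and 67.8, and is not shared by the markers as a class. Of the 7 markers without Pecam1 above the receptor cutoff on all 3 arrays, 3 were lowest and 2 highest in repeat 2. The part of such cells in the Epas1 signal was not tested.

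The genes that turn HIF alpha subunits over gave signal as well. Vhl, the substrate receptor of the ubiquitin ligase, read 6.34, 6.26 and 6.50 (6.37 ± 0.12 SD, n = 3). With keratin-associated, beta-defensin and bitter taste receptor genes (118 genes) setting a higher cutoff, at 6.20, 6.31 and 6.20 in repeats 1, 2 and 3, Vhl passed on 2 arrays and missed by 0.049 in repeat 2. Its signal is therefore close to what tissue-restricted genes can give. Egln1, the main oxygen-sensing prolyl hydroxylase, read 7.10, 7.06 and 6.89 (7.02 ± 0.11 SD, n = 3), and repeat 3 was the lowest.

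Egln3, a prolyl hydroxylase that is itself a HIF target and so part of a feedback loop, was the least even of the group. It read 7.50, 6.95 and 7.51 in repeats 1, 2 and 3 (7.32 ± 0.32 SD, n = 3). Repeats 1 and 3 were almost equal, and repeat 2 stood 0.55 log2 units below their mean, a ratio of 0.682. Only 2.06% of genes above background had a larger SD. The variance of Egln3 was 7.51 times that of the trend for genes at its level, where the trend SD was 0.12 log2 units. In a variance test built on limma's fit this gave an unadjusted p of 0.0104. The adjusted p over 13610 genes was 0.532, so the difference of repeat 2 did not pass. Without repeat 2 the SD of Egln3 was 0.010.

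The targets lay on both sides of the background. Vegfa, the main growth factor for blood vessels, read 7.61, 7.81 and 7.54 (7.65 ± 0.14 SD, n = 3). Repeat 2 was the highest and exceeded the mean of the others by 0.23 log2 units, which is the opposite side to Egln3. Bnip3, a mitophagy receptor of the outer mitochondrial membrane, read 8.31, 8.24 and 8.35 (8.30 ± 0.056 SD, n = 3) as the mean of its 2 probe sets. One probe set read 8.64, 8.44 and 8.63 and the other 7.99, 8.04 and 8.07, so they disagree on whether repeat 2 was the lowest. Whether both read Bnip3 alone is not known, which leaves its mean and its lowest repeat uncertain. Ankrd37, an ankyrin repeat gene known as a HIF target, read 6.12, 6.09 and 6.14 (6.12 ± 0.022 SD, n = 3). It was the most even of the group, with a larger SD in 96.4% of genes above background, but it lay below the higher cutoff on all 3 arrays, by 0.066 to 0.21 log2 units. Car9, the membrane carbonic anhydrase often used as a marker of hypoxic tissue, read 4.16, 4.24 and 4.14 (4.18 ± 0.056 SD, n = 3). These values lay 0.56, 0.35 and 0.46 log2 units below the cutoffs, so Car9 was not detectable on these arrays. ACGTG stands before its start on the other strand, as shown above, and before 16.6% of all mouse starts.

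**Figure D2:**
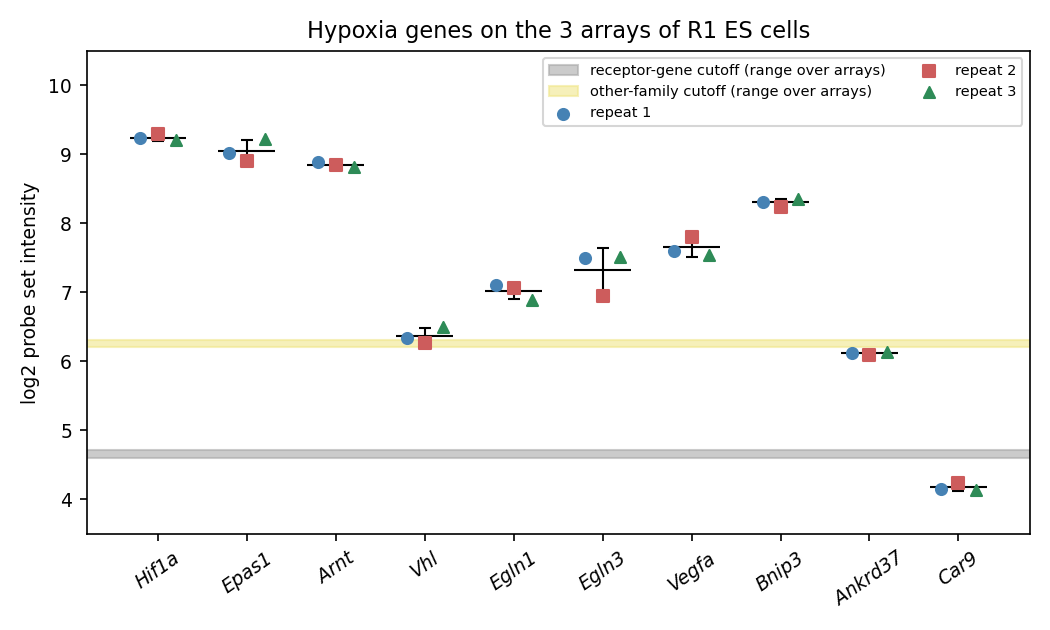
Log2 probe set intensity (y axis) of the 10 hypoxia genes on the 3 arrays (points, by repeat), with the mean (line) and SD (bar, n = 3); bands give the range over arrays of the receptor-gene cutoff (grey) and of the higher cutoff from other silent families (yellow). Car9 lies below both bands, Ankrd37 between them and Vhl at the upper one, and heights of different genes are not comparable because their probes differ.

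No gene of the group varied between repeats beyond the trend. The test set each gene's variance over 3 arrays against that of genes at its level, using limma with Benjamini-Hochberg adjustment over all genes above background on at least 1 array. Of the 9 hypoxia genes tested, 0 passed and 1, Egln3, had an unadjusted p under 0.05. Over all 13610 genes 22 passed (0.162%) and 782 had an unadjusted p under 0.05 (5.75%). After Egln3 the smallest unadjusted p was 0.121, for Epas1 (adjusted p = 0.973 in limma). A difference that misses this threshold is not shown to be absent, and the number of arrays limits what can be detected. The median SD of the 9 genes was 0.11 log2 units, against 0.10 over all 12841 genes above background on all 3 arrays.

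**Figure D3:**
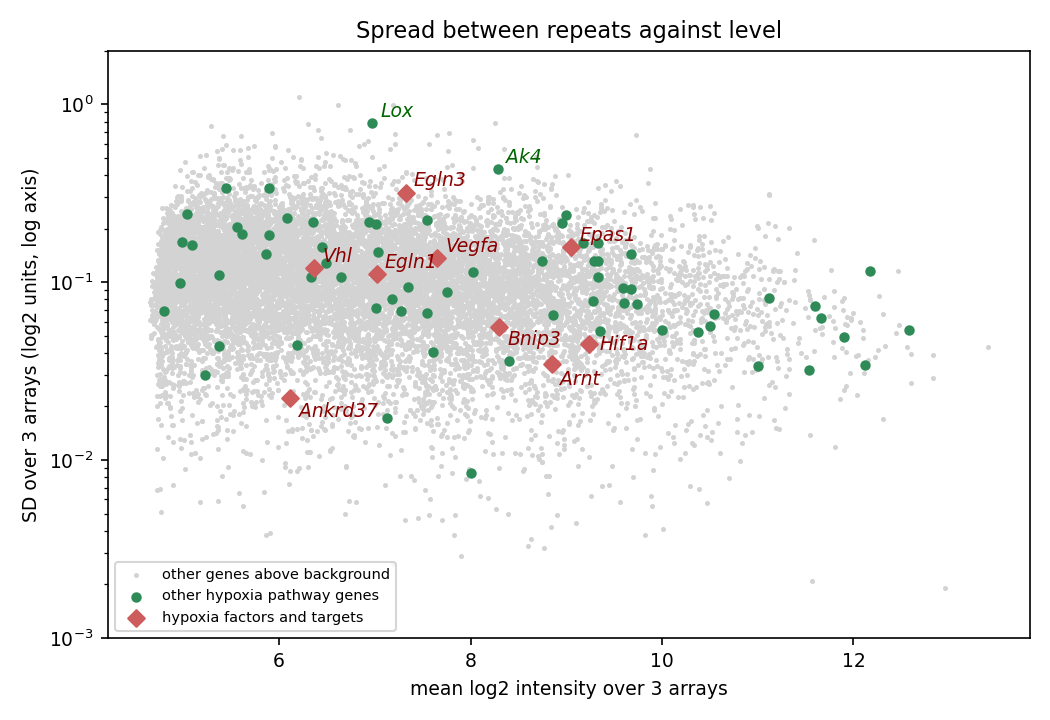
SD over 3 arrays (y axis, log2 units on a log axis) against mean log2 intensity (x axis) for all genes above background (grey), other genes of the hypoxia pathway (green) and the hypoxia genes (red diamonds). Egln3 has the largest SD of the group (0.32) and Ankrd37 the smallest (0.022); Lox and Ak4 are the pathway genes with the largest SD.

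Which repeat was high or low differed from gene to gene. Repeat 2 was the lowest in 5 of the 9 genes, namely Epas1, Vhl, Egln3, Ankrd37 and, by the mean of its disagreeing probe sets, Bnip3, against 34.8% of all genes above background. Repeat 3 was the lowest in the other 4, Hif1a, Arnt, Egln1 and Vegfa, against 31.9%, and repeat 1 in 0, against 33.3%. Repeat 3 was also the highest in 5 genes (33.1% of all genes), repeat 1 in 2 (30.0%) and repeat 2 in 2 (36.9%). After quantile normalization repeat 2 was the lowest in 5 (39.1% of all genes) and the highest in 1 (31.8%). After median centring it was the lowest in 4 (29.9%) and the highest in 2 (40.3%). The median shift of repeat 2 against the mean of the others was -0.034 over the 9 genes and 0.0063 over all genes above background. Apart from Egln3, no gene of the group moved by more than 0.3 log2 units in repeat 2, a size chosen after the values were seen. Over all genes 4.22% were lower and 5.44% higher by more than that.

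**Figure D4:**
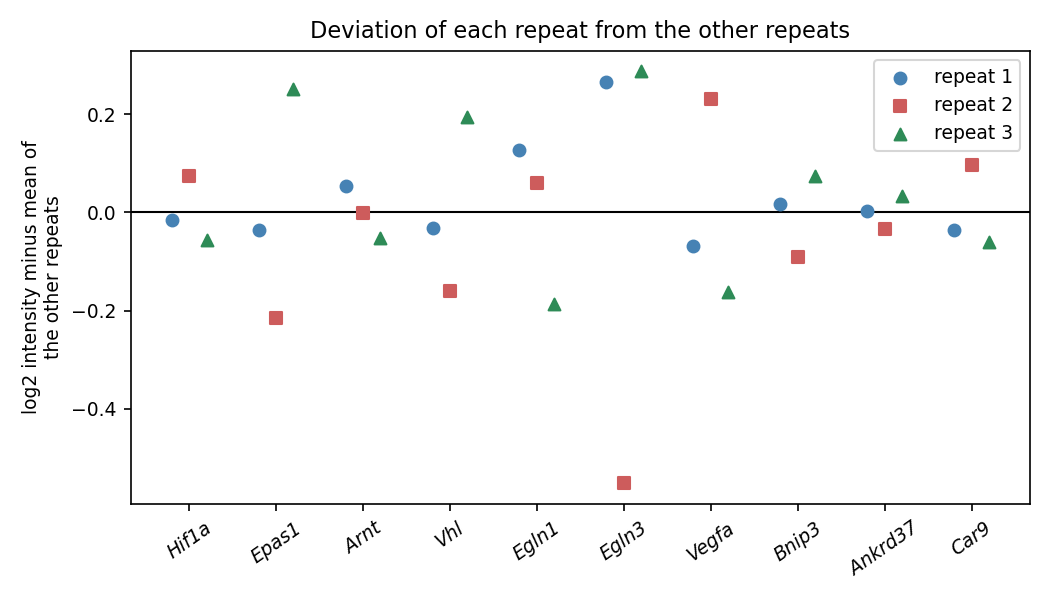
Log2 intensity of each repeat minus the mean of the other repeats (y axis) for the 10 hypoxia genes (x axis), 1 point a repeat. Egln3 in repeat 2 is the farthest point, at -0.55, and Vegfa in repeat 2 lies on the other side, at 0.23.

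The 5 genes whose pattern over the 3 arrays was nearest to that of Egln3 were Urad, Mboat1, Tek, Atp6v0a4 and Lef1. Likeness was the Euclidean distance between mean-centred log2 values among 12840 other genes above background. Distances ran from 0.0040 for Urad to 0.038 for Lef1. All 5 were lowest in repeat 2, by 0.52 to 0.58 log2 units. With 3 arrays many genes share such a pattern by construction of the search. Tek, the angiopoietin receptor, is also on the list of vascular targets below.

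The rest of the pathway was widely detected. A list of 80 other genes of oxygen sensing and HIF response held 70 with a measured value, of which 67 were above background on all 3 arrays (the share over all genes is 71.6%, as above). At the higher cutoff 48 of the 70 passed, and over all genes outside the silent families 42.2%. In the variance test 1 of the 68 tested, Lox, passed, and 7 had an unadjusted p under 0.05. Over all genes tested the shares are 0.162% and 5.75%.

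Against 71.6% of genes outside the receptor families, all 15 measured genes of HIF subunits, sensing and turnover gave signal. They include Hif3a, a less studied alpha subunit, at 5.31, 4.86 and 4.95 in repeats 1, 2 and 3, which lay below the higher cutoff on every array. Cited2, which competes with HIFs for the coactivators, read 9.17 ± 0.17, and the coactivator Ep300 read 9.34 ± 0.17 (SD, n = 3 each). None of the 15 passed the variance test. Egln2, the remaining prolyl hydroxylase, is named because its values, 8.01, 8.00 and 8.02, were among the most even of all genes. Its SD of 0.0084 was exceeded by 99.5% of genes above background, while that of its paralog Egln3 was exceeded by 2.06%. The difference in spread between the 2 paralogs was not tested.

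Of 16 vascular and secreted targets 14 were above background on all 3 arrays, against 71.6% of genes outside the receptor families. Only 3 were also above the higher cutoff, a smaller share than the 42.2% of genes outside the silent families. Epo, the hormone of red cell production and the classic HIF target, was below background at 3.95, 3.74 and 3.90 in repeats 1, 2 and 3. Pgf, a relative of Vegfa, passed on 2 arrays, at 4.96, 5.11 and 4.36. Edn1, the vasoconstrictor endothelin, read 5.58, 5.70 and 5.07 and was lowest in repeat 3, while Tek read 6.09, 5.50 and 6.08. Neither passed the variance test (adjusted p = 0.663 and 0.653 in limma).

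Of 12 targets in mitophagy, growth and survival 11 gave signal, against 71.6% of genes outside the receptor families. The clock-linked repressor Bhlhe41 did not, at 3.62, 3.51 and 3.65. Ak4, a mitochondrial adenylate kinase, read 8.28, 8.72 and 7.86 in repeats 1, 2 and 3, with each repeat apart from the others. It did not pass in limma (unadjusted p = 0.000615, adjusted p = 0.159). Ddit4, an inhibitor of mTOR signalling, read 6.99, 6.69 and 7.12. Ier3, an early response gene, read 5.76, 5.82 and 6.10 and did not pass either.

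All 18 measured genes of glucose transport, glycolysis and pH control gave signal, and 16 were also above the higher cutoff. The shares over all genes are 71.6% and 42.2%. The neuron-type glucose transporter Slc2a3 read 12.21, 12.27 and 12.05 in repeats 1, 2 and 3. The lactate exporter Slc16a3 read 9.18, 8.73 and 9.09, and repeat 2 was 0.40 log2 units below the mean of the others (adjusted p = 0.655 in the variance test built on limma). Car12, a second membrane carbonic anhydrase, read 5.03, 4.85 and 5.02, above the receptor cutoff but below the higher one. In 12 of the 18 genes repeat 2 was the lowest, against 34.8% of all genes, but the shifts were small, with a median of -0.058. The count was 13 after quantile normalization (39.1% of all genes) and 10 after median centring (29.9%). These genes share 3 arrays and are not independent.

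The 9 genes of the hydroxylase, matrix and chromatin list were all above both cutoffs. The shares over all genes are 71.6% for the receptor cutoff and 42.2% for the higher one. Lox, the collagen cross-linking enzyme, read 6.46, 7.88 and 6.58 in repeats 1, 2 and 3, and repeat 2 exceeded the mean of the others by 1.35 log2 units (2.56-fold). It was the only gene of the pathway to pass the variance test, with an adjusted p of 0.0191 in limma. The call was lost without repeat 2 (adjusted p = 0.997), without repeat 1 (0.289), without the trend (0.193) and without robust fitting of the prior (0.0504). P4ha1, a collagen prolyl hydroxylase, read 7.50, 7.78 and 7.34, and the histone demethylase Kdm3a read 9.59, 9.84 and 9.59. Repeat 2 was the highest in 7 of the 9 genes, against 36.9% of all genes, and the median shift was 0.19. After quantile normalization it was the highest in 6 (31.8% of all genes) and the lowest in 1 (39.1%), with a median shift of 0.17. After median centring it was the highest in 7 (40.3%), with a median shift of 0.21. These genes also share 3 arrays and are not independent.

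Most fibroblast and feeder markers above background were also highest in repeat 2. Of 13 such markers 11 passed the background cutoff on every array (the share over all genes is 71.6%). Repeat 2 was the highest in 10 of the 11, against 36.9% of all genes above background, with a median shift of 0.39. The summed intensity of all 13 was 6854 in repeat 2, and 5418 and 5605 in repeats 1 and 3. Most of that sum came from Vim, at 1631, 1984 and 1734 in repeats 1, 2 and 3, and Fn1, at 2165, 2327 and 2181. The shift of repeat 2 was only 0.098 for Fn1 and 0.10 for Dcn, which was highest in repeat 1. Acta2 read 7.57, 9.11 and 8.07 in repeats 1, 2 and 3, and Postn 5.47, 6.60 and 5.78. Lum was below background on all arrays and S100a4 in repeat 2 only. Both went the other way, lowest in repeat 2 with shifts of -0.23 for Lum and -0.44 for S100a4. In the variance test built on limma 1 of 12 tested markers, Acta2, passed (adjusted p = 0.00807), and 6 had an unadjusted p under 0.05. Over all genes the shares are 0.162% and 5.75%. Whether such cells were present is not given in the labels. Any part of theirs in the values of Lox, P4ha1 and the hypoxia genes was not tested. ES cell markers were high throughout, with all 11 measured above both cutoffs, and of 7 blood markers 2 passed the receptor cutoff and 0 the higher one. Over all genes 71.6% passed the receptor cutoff and 42.2% the higher one.

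**Figure D5:**
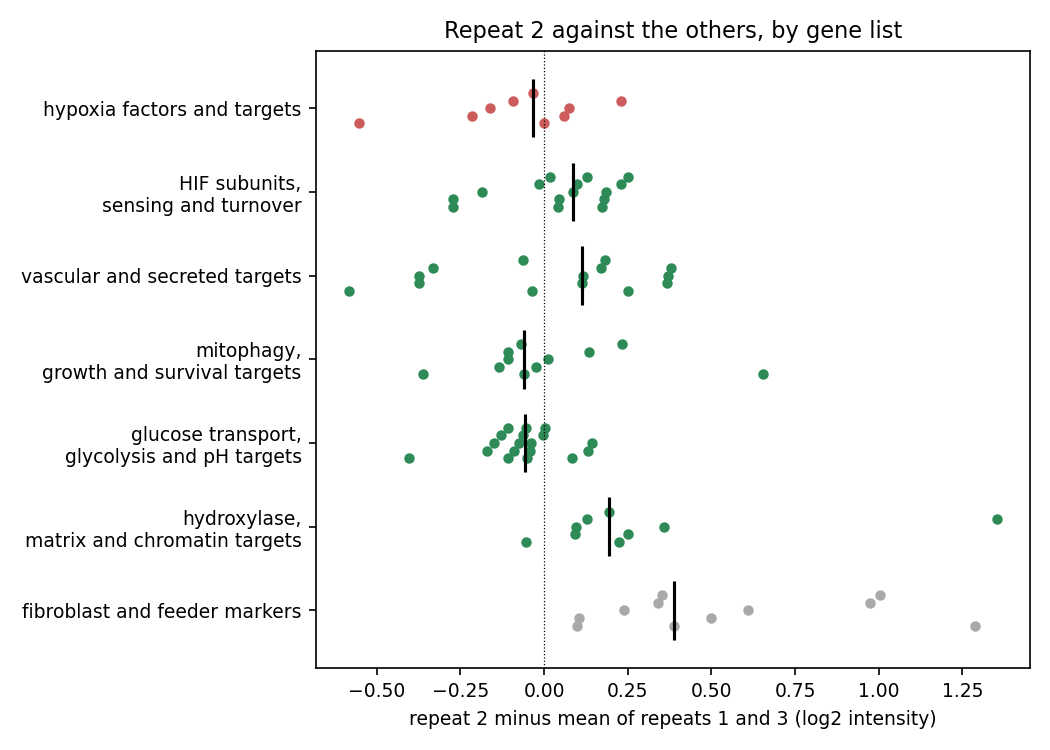
Repeat 2 minus the mean of repeats 1 and 3 (x axis, log2 intensity) for genes above background in each list (y axis; 1 point a gene, vertical line at the median). The hypoxia genes lie around 0 with Egln3 far to the left, while fibroblast and feeder markers all lie to the right, with a median of 0.39.

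Across the 5 pathway lists together, genes that differed by more than 0.3 log2 units in repeat 2 were as often lower as higher. Among the 67 pathway genes above background 6 were lower (Tek, Slc16a3, Adm, Stc2, Ddit4 and Nos3) and 6 were higher (Lox, Ak4, Edn1, Hmox1, Igfbp3 and P4ha1). The shares over all genes are 4.22% and 5.44%, as given above. Adm, which encodes the vasodilator adrenomedullin, read 6.28, 5.83 and 6.12 in repeats 1, 2 and 3. Hmox1, the haem-degrading enzyme, read 8.87, 9.21 and 8.81. Of these 12 genes only Lox passed the variance test.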

How the data were processed

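The deposited values are linear intensities, 1 per probe set and array. The submitters' processing notes name GCOS 1.4; how background, normalization and summary were handled is not given in the sources used here, and the size of a difference may depend on it. Array medians were 47.8, 46.7 and 46.8 in repeats 1, 2 and 3, and no further scaling was applied. The labels call the repeats biological without describing the cultures. The p-values compare a gene's spread between these samples with that of genes at its level, and do not extend to other cultures.

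Of 26730 probe sets, those with 1 symbol in the platform annotation (20764) were used, and 1419 with several and 4547 with none were left out. Identifiers of 20678 matched RefSeq (GRCm38.p6). Values were taken to log2, and 930 genes with several probe sets got their mean. The members and gene lists were chosen with earlier results of these data known. Named genes are all members and, in each other pathway list, the 3 with the largest SD, any 5 or fewer genes on 1 side of the cutoff, and those passing the variance test; others were named after their values were seen. That test took an intercept-only fit and a trended, robust prior variance from limma 3.58.1 (R 4.3.3). The prior degrees of freedom were the largest of the robust fit, used for every gene in place of its own. The test set each gene's variance over the prior variance against F with 2 and 9.89 degrees of freedom, at an adjusted p of 0.05. It was also run on normal data simulated from the fitted trend, with shifts in repeat 2 larger than that of Egln3. Shifts as small as that of Egln3 were not simulated. The remaining steps used Python 3.11.15 with pandas 2.3.3. Alternatives changed the cutoff, its genes, the arrays needed, the normalization, the probe set rule, the filter or the prior, or left out 1 repeat.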

Additional observations from a re-analysis of the deposited data

How the results depend on the processing

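The count of 9 hypoxia genes above background held under 8 of its 9 alternatives. It was 7 of 10 with other silent families as background, where Vhl and Ankrd37 were lost. At that cutoff 42.2% of genes outside the silent families passed. The other pathway genes above background numbered 48 to 68. The count of hypoxia genes varying beyond the trend in limma was 0 under all 9 alternatives, with 0 or 1 at an unadjusted p under 0.05. Over all genes the count of 22 was 10 without robust fitting, 1 without the trend, 13 after quantile normalization and 42 after median centring, and 0 to 34 when a repeat was left out (0 without repeat 1, 34 without repeat 2, 12 without repeat 3). Lox, the 1 pathway gene that passed, was lost (0) without robust fitting and without the trend, and the count was 0 to 1 when a repeat was left out. The median SD of the hypoxia genes, 0.11, was 0.044 without repeat 2, 0.052 without repeat 3 and 0.12 without repeat 1. With a repeat left out the SD rests on 2 arrays, where its median tends to be lower. No matching values over all genes are given, so these medians are not set against 0.11. Bnip3 read 8.57 with its highest probe set. The repeat 2 shift of Arnt, -0.0013, changed sign to 0.016 after median centring; the other 9 hypoxia genes kept the sign of theirs under the 3 alternatives. The cause of these changes was not tested. Probe sets near the cutoffs (Vhl, Ankrd37 and Car9) are limited by signal over background. No paired analysis was possible because the samples form 1 group.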
